A study of Mus musculus with 12 samples.

Results

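The genes described here are the translation initiation and elongation factors of mouse renal cortex. They were chosen by name alone, as every gene whose symbol starts with Eif or Eef followed by a digit. The annotation holds 79 such genes, of which 68 are protein coding, and 66 of these, all coding, were measured, out of 13465 genes in all. The 66 genes were represented by 148 transcripts, 32 of them by 1 transcript each and Eif5a by 11. Of the 66, 65 passed the filter on low values and were tested. The exception was Eef1a2, the elongation factor 1 alpha of muscle and neurons, which did not exceed 0.886 FPKM in any library. The coding genes Eif2s3y and Eif4e1b were not analysed here.

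RNA from the renal cortex of mice was sequenced in 4 groups of 3 libraries. CKO IRI mice lacked Gpx3 in the renal tubular epithelial cells and underwent bilateral renal ischemia for 30 min with 48 h of reperfusion, and WT IRI mice underwent the same injury with Gpx3 intact. CKO sham and WT sham mice were the knockout and wild-type mice after sham surgery. Gpx3 encodes a secreted glutathione peroxidase made mainly by kidney tubules, and the design asks how its loss there affects renal gene expression during acute kidney injury. The strain, age and sex of the mice and the driver of the deletion are not given in the sources used here. Nothing states that the libraries came from separate animals, so p-values measure the spread between libraries, which may be technical. In whole tissue, fewer cells of a type and less RNA per cell cannot be told apart.

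Translation begins when the small ribosomal subunit, held by eIF1, eIF1A, eIF3 and eIF5 and loaded with initiator tRNA by eIF2, is brought to the capped end of an mRNA by the eIF4 factors and scans to the start codon. Elongation then needs eEF1A to deliver each aminoacyl-tRNA and eEF2 to move the ribosome on. Cells slow initiation through kinases that phosphorylate eIF2 alpha and through binding proteins that hold the cap-binding factor eIF4E, and they slow elongation through the kinase of eEF2. In the injured kidney, surviving tubule cells dedifferentiate and divide to repair the epithelium, a state with high demand for protein synthesis.

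Values are summed FPKM per gene (fragments mapped, divided by transcript length and library size), a unit that allows levels to be set side by side between genes. Library sums lay between 391002 and 422328 FPKM, and the number of reads is unknown. Median SDs between libraries on the log2(FPKM + 1) scale were, for the factor genes, 0.211 in CKO IRI, 0.19 in WT IRI, 0.133 in CKO sham and 0.067 in WT sham, and over all genes 0.227, 0.274, 0.168 and 0.098. The targeted gene Gpx3 measured 2501, 3037 and 3299 FPKM in CKO sham and 5664, 4476 and 5371 FPKM in WT sham, without overlap (exact two-sided permutation p = 0.1, the smallest that 3 against 3 allows). After injury its values were 3723, 3025 and 2779 FPKM in the libraries labelled CKO IRI 7, 15 and 29, against 2788, 3568 and 1075 FPKM in the libraries labelled WT IRI 13, 24 and 49 (exact permutation p = 0.5). Gpx3 therefore did not separate the genotype labels after injury, and every genotype direction after injury below is that of libraries as labelled. The labels give the tissue as kidney while their extraction protocol speaks of joint capsule. The summed proximal tubule markers Lrp2, Slc34a1, Slc5a2 and Cubn reached 605.52 FPKM or more in every library, whereas the cartilage and synovium genes Col2a1, Acan and Prg4 were not analysed here and Comp did not exceed 1.63 FPKM.

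Promoters are shown for members on which the results below turn, among those that had an entry in the RefSeq promoter table for GRCm38.p6 (51 of the 66 members did). Each covers 250 bases before to 20 bases after the annotated start, for genes with several starts the one nearest the gene's annotated 5′ end, and is written 5′ to 3′ on the gene's own strand. Capitals mark matches to the motifs searched on both strands: the E-box CACGTG, the CRE TGACGTCA, the ETS motif CCGGAAGT and the amino acid response element TGATGNAA. Eef1b2 (chr1:63176581-63176850, plus strand) and Eif3d (chr15:77970805-77971074, minus strand) rose after injury in both genotypes, Eif4a1 (chr11:69672404-69672673, minus strand) and Eef2k (chr7:120842581-120842850, plus strand) rose in WT, and Eef2 (chr10:81176381-81176650, plus strand) passed the test in no comparison.
Eef1b2: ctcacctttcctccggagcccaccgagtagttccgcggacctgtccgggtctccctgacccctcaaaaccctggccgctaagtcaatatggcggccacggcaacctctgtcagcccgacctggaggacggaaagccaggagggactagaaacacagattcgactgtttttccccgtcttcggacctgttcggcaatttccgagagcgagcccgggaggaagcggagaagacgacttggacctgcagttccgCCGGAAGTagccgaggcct
Eif3d: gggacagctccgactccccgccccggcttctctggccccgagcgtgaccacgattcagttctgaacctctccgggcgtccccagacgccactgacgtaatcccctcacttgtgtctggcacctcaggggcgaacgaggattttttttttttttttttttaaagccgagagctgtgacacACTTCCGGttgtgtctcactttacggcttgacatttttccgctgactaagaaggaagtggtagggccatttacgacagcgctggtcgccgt
Eif4a1: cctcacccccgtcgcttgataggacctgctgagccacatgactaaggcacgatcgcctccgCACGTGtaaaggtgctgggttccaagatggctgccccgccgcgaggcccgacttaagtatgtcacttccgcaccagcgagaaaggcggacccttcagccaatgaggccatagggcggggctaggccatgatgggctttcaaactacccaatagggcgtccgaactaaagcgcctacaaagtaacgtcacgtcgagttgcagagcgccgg
Eef2k: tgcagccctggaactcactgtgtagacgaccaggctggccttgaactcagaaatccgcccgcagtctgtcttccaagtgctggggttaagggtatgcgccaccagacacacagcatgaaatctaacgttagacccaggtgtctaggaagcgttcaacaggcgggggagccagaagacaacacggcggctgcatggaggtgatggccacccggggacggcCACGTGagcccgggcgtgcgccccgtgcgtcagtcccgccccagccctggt
Eef2: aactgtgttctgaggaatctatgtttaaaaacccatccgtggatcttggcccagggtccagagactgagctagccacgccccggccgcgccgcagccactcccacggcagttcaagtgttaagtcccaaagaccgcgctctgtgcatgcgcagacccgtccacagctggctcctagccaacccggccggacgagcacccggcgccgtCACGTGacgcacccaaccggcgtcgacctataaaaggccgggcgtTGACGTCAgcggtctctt
Eef1b2 and Eif3d each hold an ETS match, on the plus and the complementary strand of the gene. Eif4a1, Eef2k and Eef2 each hold an E-box, which in Eef2 is followed by a CRE.

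Across the 51 promoters, the E-box was found in 10 members (19.6%), against 6.6% of the promoters of 27025 genes in windows of the same length. Those 27025 are all genes with an entry, members and unmeasured genes included, each at its first listed start. Members were taken at the start nearest the annotated 5′ end, so the percents are not of like sets. Members with it were Eef1akmt4, Eef2, Eef2k, Eif1b, Eif3f, Eif3k, Eif4a1, Eif4g1, Eif4h and Eif5a2. The ETS motif was found in 6 (11.8%, against 3.6%), namely Eef1b2, Eif2b4, Eif3d, Eif3l, Eif4e2 and Eif5a2. A CRE was found in 1 (2.0%, against 1.8%) and an amino acid response element in 1, Eif2s3x (2.0%, against 3.8%). Of the 20 members with a promoter entry that rose after injury in WT, 5 held an E-box (25.0%) and 3 an ETS motif (15%). These are matches of letters in a window and do not show that a factor binds.

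In sham cortex, levels ranged over more than 3 orders of magnitude, from Eef1a2 at the bottom to Eef1a1 at the top. Eef1a1, which carries aminoacyl-tRNA to the ribosome, averaged 1176 ± 96.8 FPKM in CKO sham and 1154 ± 46.1 FPKM in WT sham (SD, n = 3 each). Next in WT sham came Eef2, the translocation factor, at 495 ± 5.83 FPKM, then Eif5a at 259 ± 12.5 and Eif1 at 185 ± 11.9 FPKM, each separated from its neighbour by more than their SDs. Eef1g (159 ± 5.41), Eif4g2 (154 ± 5.28) and Eif3k (143 ± 8.26) followed, and the first 2 of these did not differ beyond their spread. Regulators spread widely in WT sham. Eif4ebp2, a protein that binds eIF4E, stood at 49.3 ± 1.03 FPKM and the kinase Eif2ak1 at 23.9 ± 0.217 FPKM, above Eif4e at 15.8 ± 1.41 FPKM. The double-stranded RNA sensor Eif2ak2 stood at 3.17 ± 0.23 FPKM, the amino acid sensor Eif2ak4 at 3.80 ± 0.648 FPKM and Eef2k at 0.761 ± 0.177 FPKM.

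The 66 genes together made up 1.32%, 1.19% and 1.42% of the summed FPKM in CKO IRI 7, 15 and 29 and 1.53%, 1.54% and 1.36% in WT IRI 13, 24 and 49. They made up 0.993%, 1.09% and 1.11% in CKO sham 1, 2 and 3 and 1.16%, 1.14% and 1.14% in WT sham 1, 2 and 3. Every injured library therefore lay above every sham library. Within each injured group the libraries kept the order of their tubular injury markers Havcr1, Lcn2 and Krt20, which summed to 460.29, 212.66 and 915.4 FPKM in CKO IRI 7, 15 and 29 and to 889.1, 916.34 and 455.84 FPKM in WT IRI 13, 24 and 49. Sham libraries held 8.2 to 16.87 FPKM of these markers in CKO and 6.47 to 8.07 FPKM in WT. The part of the degree of injury in the factor genes' share was not tested.

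**Figure D1:**
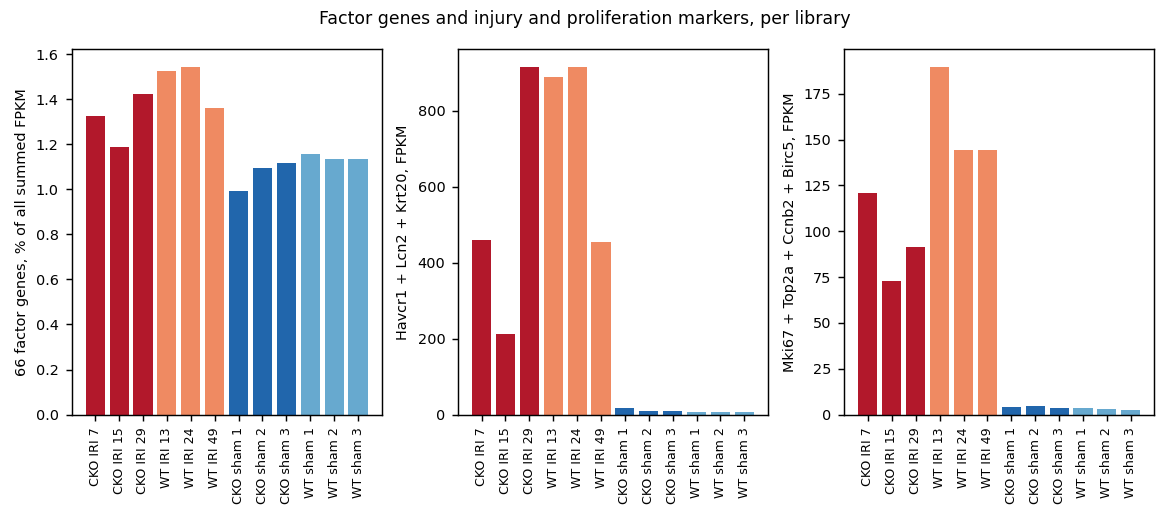
Bars give, for each library, the summed FPKM of the 66 factor genes as a percent of all summed FPKM (left), the sum of the tubular injury markers Havcr1, Lcn2 and Krt20 (middle) and the sum of the proliferation markers Mki67, Top2a, Ccnb2 and Birc5 (right). CKO IRI 15 and WT IRI 49 are lowest in their groups in the left and middle panels, and all 6 injured libraries exceed the 6 sham libraries in all 3 panels.

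Injury in the kidneys labelled WT was accompanied by a broad rise of the factors. Of 65 tested genes, 27 rose (41.5%) and 1, Eif4g2, fell (1.5%) at a limma adjusted p under 0.05, whereas over all 12469 tested genes 25.1% rose and 11.9% fell. Their median log2 change was 0.34, against 0.12 over all genes. Counts by complex or role in WT below are to be read beside the 25.1% and 11.9% of all genes. In 38 of the 65 genes the WT IRI libraries lay above all WT sham libraries and in 5 below them (35.2% and 19.5% of all genes). Of 3 rescalings, setting each library to the same total left the median of all genes at 0.12, with 26 factor genes higher and 1 lower. The other 2 moved that median by more than 0.1, to -0.03 with quantile normalization and -0.01 with trimmed-mean scaling. The split of the factor genes became 24 higher and 5 lower and 16 higher and 5 lower. Over all 12469 genes the calls were 2225 higher and 2187 lower with quantile normalization and 2242 and 2226 with trimmed-mean scaling. As deposited they were 3125 and 1483. The 5 lower factor genes were the same in both settings, namely Eif2ak1, Eif2ak3, Eif4ebp2, Eif4g2 and Eif4g3. Rises lost with trimmed-mean scaling were those of Eef1a1, Eef1d, Eef2kmt, Eif1, Eif2b4, Eif3a, Eif3b, Eif3m, Eif4a3, Eif4e3 and Eif4h. A fit of only the WT groups called 19 higher and lost Eef1a1, Eef1d, Eif1, Eif2b4, Eif3a, Eif3m, Eif4e3 and Eif4h. That fit called 2666 of all 12064 tested genes higher. Without WT sham 2 or WT sham 3 the rises numbered 17 and 16, and over all genes 2185 and 2176. The calls of 12 genes were kept in each of the 24 alternatives: Eef1b2, Eef1g, Eif1ad, Eif2s2, Eif3d, Eif3f, Eif3g, Eif3h, Eif3k, Eif4ebp1, Eif5b and Eif6. The 27 genes that rose had a median of 49.4 FPKM in WT sham, and the 37 not called 17.4 FPKM.

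Other cell populations and states moved in the same comparison. Proliferation markers were higher in 4 of 4 and summed to 144.33 to 189.71 FPKM in WT IRI and 2.59 to 3.63 FPKM in WT sham. Macrophage and monocyte markers were higher in 4 of 6 (102.98 to 200.94 FPKM in WT IRI and 50.78 to 65.55 FPKM in WT sham), and fibroblast markers in 3 of 4 (109.62 to 303.52 and 34.41 to 37.78 FPKM). The macrophage markers not called, Adgre1 (-0.15) and Csf1r (-0.76), had negative changes with overlapping groups. Proximal tubule markers were lower in 4 of 4, at 605.52 to 1228.82 FPKM in WT IRI and 2136.39 to 2270.78 FPKM in WT sham, and endothelial markers in 3 of 3 (14.22 to 25.25 and 41.35 to 44.5 FPKM). In CKO kidneys 4 of 4 proliferation, 1 of 6 macrophage and 2 of 4 fibroblast markers were higher and 1 of 4 proximal tubule and 2 of 3 endothelial markers lower. Their part in the changes of the factor genes was not tested.

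**Figure D2:**
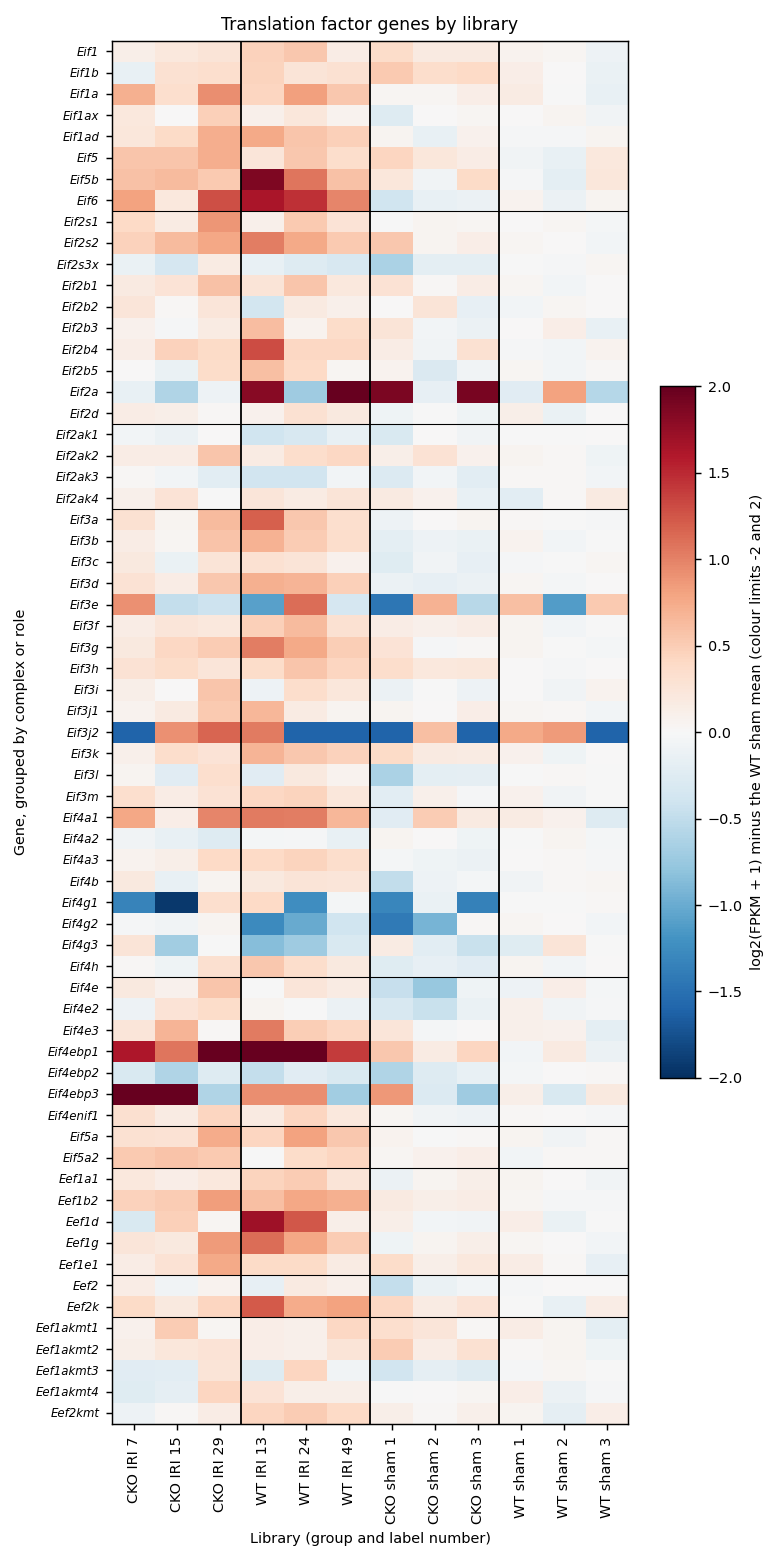
Colours give log2(FPKM + 1) minus the WT sham mean for the 65 tested factor genes (in lines, grouped by complex or role) in the 12 libraries (columns, by group), with limits at -2 and 2. WT IRI 13 and 24 and CKO IRI 29 are the reddest columns, and Eif2a, Eif3e, Eif3j2, Eif4ebp3 and Eif4g1 vary strongly within groups.

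Among the factors that set up the scanning complex and join the subunits, 5 of 8 rose in WT. Eif6, which keeps the large ribosomal subunit from joining too early and serves its assembly (chromosome 2, 155819832 to 155826925, minus strand), measured 140, 124 and 88.7 FPKM in WT IRI 13, 24 and 49 and 46.7, 41.0 and 46.3 FPKM in WT sham. The lowest injured library lay well above the highest sham library, and the log2 change was 1.36 (SE 0.25, limma adjusted p = 0.00253). Eif5b, the GTPase that joins the subunits, averaged 37.4 ± 17.5 FPKM in WT IRI and 15.1 ± 2.38 FPKM in WT sham (log2 change 1.17, adjusted p = 0.00718), with WT IRI 13 at 56.9 FPKM far above the other injured libraries. Eif1ad averaged 21.5 ± 2.29 FPKM in WT IRI and 13.9 ± 0.537 FPKM in WT sham, a change of 0.59. Eif1 and Eif1a, which hold the scanning ribosome open, changed by 0.38 and 0.60. The call of Eif1 was lost without any 1 of WT IRI 13, WT IRI 24 or the 3 WT sham libraries (highest adjusted p 0.121). Over all alternatives its adjusted p reached 0.1773. The call of Eif1a was lost without WT IRI 24 (0.0569) or WT sham 3 (0.066). Eif1b, Eif1ax and Eif5, the GTPase activator of eIF2, did not pass.

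The eIF2 complex, which brings initiator tRNA, and its exchange factor eIF2B, grouped here with Eif2a and Eif2d, moved less evenly, with 2 of 10 genes higher. Eif2s2, the beta subunit, measured 84.1, 70.0 and 59.6 FPKM in WT IRI and 42.3, 41.2 and 39.5 FPKM in WT sham, a change of 0.77 (SE 0.16, limma adjusted p = 0.00485), without overlap. Eif2s1, the alpha subunit that stress kinases phosphorylate, measured 16.2, 22.0 and 18.3 FPKM in WT IRI and 15.1, 15.5 and 14.5 FPKM in WT sham. Its change of 0.30 (SE 0.17) did not pass (adjusted p = 0.194). Eif2s3x, the gamma subunit, averaged 31.1 ± 1.94 FPKM in WT IRI and 36.9 ± 0.898 FPKM in WT sham, a change of -0.24 that did not pass. Of the eIF2B subunits Eif2b4 passed, at 32.6, 17.1 and 17.1 FPKM in WT IRI and 12.3, 12.1 and 13.3 FPKM in WT sham (0.71), but not without WT IRI 13 (0.0507) or without any WT sham library (0.0588 to 0.0783). Eif2a, which can deliver initiator tRNA independently of eIF2, ranged from 3.23 to 30.0 FPKM within WT IRI and did not pass.

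On the values as deposited, none of the 4 kinases of eIF2 alpha passed the limma test in any comparison, and in WT 1 of the 4, Eif2ak1, had an unadjusted p under 0.05. Eif2ak1, the heme-regulated kinase, measured 17.9, 18.9 and 21.4 FPKM in WT IRI and 23.7, 23.9 and 24.1 FPKM in WT sham, all injured libraries lying lower (-0.29, SE 0.11, adjusted p = 0.0656). Eif2ak3, the kinase PERK of the endoplasmic reticulum, measured 8.15, 8.18 and 10.6 FPKM in WT IRI and 11.2, 11.2 and 10.6 FPKM in WT sham (-0.28, adjusted p = 0.113). Both passed as lower with quantile normalization, trimmed-mean scaling, array weights or WT IRI 49 left out, and Eif2ak1 also without CKO sham 1, but neither passed when each library was rescaled to the same total. Eif2ak2, the interferon-inducible kinase PKR, measured 3.66, 4.35 and 4.54 FPKM in WT IRI and 3.35, 3.25 and 2.92 FPKM in WT sham (0.31, adjusted p = 0.117). Eif2ak4, the amino acid sensor GCN2, held 4.62, 4.34 and 4.69 FPKM in WT IRI and 3.13, 3.84 and 4.42 FPKM in WT sham (0.22, adjusted p = 0.254).

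The scaffold eIF3 gave the most calls, 8 of its 14 genes rising in WT and none falling. Eif3d, a subunit that can itself bind the cap of certain mRNAs (chromosome 15, 77958998 to 77970813, minus strand), measured 81.5, 79.9 and 69.0 FPKM in WT IRI and 50.8, 48.0 and 49.6 FPKM in WT sham (0.62, SE 0.12, limma adjusted p = 0.00314). Eif3g measured 117, 97.2 and 80.5 FPKM in WT IRI and 59.3, 56.6 and 55.6 FPKM in WT sham (0.76, SE 0.15, adjusted p = 0.00368). Injured and sham libraries did not overlap in either gene. Eif3k, the most abundant subunit, averaged 212 ± 17.0 FPKM in WT IRI and 143 ± 8.26 FPKM in WT sham (0.56), Eif3h 152 ± 10.2 and 110 ± 1.69 FPKM (0.45) and Eif3f 85.9 ± 9.46 and 61.5 ± 2.06 FPKM (0.47). Those 5 calls were kept in every alternative, whereas those of Eif3a (0.69), Eif3b (0.52) and Eif3m (0.36) were not. Leaving out WT IRI 13 took all 3 out of the calls (adjusted p of 0.0642, 0.0607 and 0.0714), as did leaving out WT sham 2 (0.0647, 0.0642 and 0.108) or WT sham 3 (0.0674, 0.0554 and 0.0884). The calls of Eif3a and Eif3m also rested on WT sham 1 (0.0605 and 0.0527 when it was left out), and that of Eif3m on WT IRI 24 (0.0864). The other subunits Eif3c, Eif3i, Eif3j1 and Eif3l changed by 0.02 to 0.30 without passing, and Eif3e and Eif3j2 varied too widely within groups to read.

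Of the helicase and scaffold factors that open the mRNA, 3 of 8 rose and 1 fell. Eif4a1, the main eIF4A helicase, measured 120, 118 and 92.6 FPKM in WT IRI and 65.3, 61.2 and 48.5 FPKM in WT sham (0.91, SE 0.24, limma adjusted p = 0.0149). It did not pass without WT IRI 13 (0.0505) or WT sham 3 (0.0609). Its paralog Eif4a2 measured 60.9, 62.0 and 56.5 FPKM in WT IRI and 62.3, 64.9 and 61.0 FPKM in WT sham (-0.07, adjusted p = 0.603), so that the near-equal levels of the paralogs in WT sham (58.4 ± 8.77 FPKM for Eif4a1 and 62.7 ± 1.95 for Eif4a2) stood at 110 ± 15.4 and 59.8 ± 2.90 FPKM in WT IRI. Eif4a3, the helicase of the exon junction complex, averaged 59.9 ± 2.13 FPKM in WT IRI and 45.2 ± 0.598 FPKM in WT sham (0.40), and did not pass without WT sham 3 (0.0518). Eif4h, which stimulates eIF4A, changed by 0.37 and lost its call in 13 of 24 alternatives, among them without CKO IRI 7, WT IRI 13, WT IRI 24 or any sham library (adjusted p 0.0526 to 0.126). The scaffold Eif4g1 measured 84.3, 26.2 and 61.4 FPKM in WT IRI and 62.8, 62.9 and 64.6 FPKM in WT sham (-0.29, SE 0.57, adjusted p = 0.712).

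Eif4g2, the scaffold DAP5 that lacks the eIF4E-binding part of eIF4G (chromosome 7, 111067750 to 111083030, minus strand), was the 1 gene that fell. It measured 63.1, 76.3 and 116 FPKM in WT IRI 13, 24 and 49 and 158, 155 and 148 FPKM in WT sham (-0.89, SE 0.31, limma adjusted p = 0.0453). This value moved with the split between transcripts. The transcript Eif4g2-206 of 3548 bases held 0.444, 3.908 and 77.828 FPKM in WT IRI and 123.438, 119.25 and 112.65 FPKM in WT sham, while Eif4g2-213 of 7995 bases held 58.88, 69.375 and 36.204 FPKM in WT IRI and 32.331, 33.696 and 32.702 FPKM in WT sham. The long transcript was thus high where the short one was near 0. Summed FPKM depends on which transcript fragments are assigned to, and the part of this in the fall was not tested. In an alternative added after seeing the data, transcripts were weighted by length and divided by the length of the highest transcript. Eif4g2 then held 134, 161 and 160 in WT IRI and 197, 196 and 187 in WT sham, still without overlap. It averaged 152 ± 15.2 in WT IRI and 193 ± 5.46 in WT sham, and the change of -0.35 did not pass (adjusted p = 0.109). The call was also lost without any 1 of 9 libraries (adjusted p 0.0553 to 0.153), namely CKO IRI 7, 15 and 29, CKO sham 2, WT IRI 13 and 24 and the 3 WT sham libraries.

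Eif4ebp1, the binding protein 4E-BP1 that holds eIF4E off the cap until the kinase mTORC1 phosphorylates it, had the smallest p of all members (chromosome 8, 27260329 to 27276674, plus strand). It measured 35.2, 42.8 and 21.1 FPKM in WT IRI 13, 24 and 49 and 7.01, 8.40 and 6.69 FPKM in WT sham. Every injured library exceeded every sham library by more than 2-fold, and the log2 change was 1.97 (SE 0.28, limma adjusted p = 0.000741), the call being kept in every alternative. Its relative Eif4ebp2 measured 35.3, 42.0 and 39.9 FPKM in WT IRI and 48.1, 49.7 and 50.1 FPKM in WT sham, all injured libraries lying lower (-0.33, SE 0.14, adjusted p = 0.0894). The cap-binding factor itself, Eif4e, measured 15.6, 18.8 and 17.9 FPKM in WT IRI and 14.7, 17.4 and 15.3 FPKM in WT sham (0.13, adjusted p = 0.588). Summed FPKM of 4E-BP1 thus stood above that of its target in WT IRI (33.0 ± 11.0 and 17.4 ± 1.64 FPKM) and below it in WT sham (7.37 ± 0.913 and 15.8 ± 1.41 FPKM). Eif4ebp2 stood above Eif4e in both groups, at 39.0 ± 3.4 FPKM in WT IRI and 49.3 ± 1.03 FPKM in WT sham. The crossing therefore describes the RNA of Eif4ebp1 and not the binding proteins together. Eif4e3, a cap-binding relative of eIF4E, also rose, by 0.65, but not without WT IRI 13 (0.11) or any WT sham library (0.0601 to 0.112). Eif4ebp3 ranged from 10.2 to 33.8 FPKM within WT IRI (0.39, SE 0.72).

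**Figure D3:**
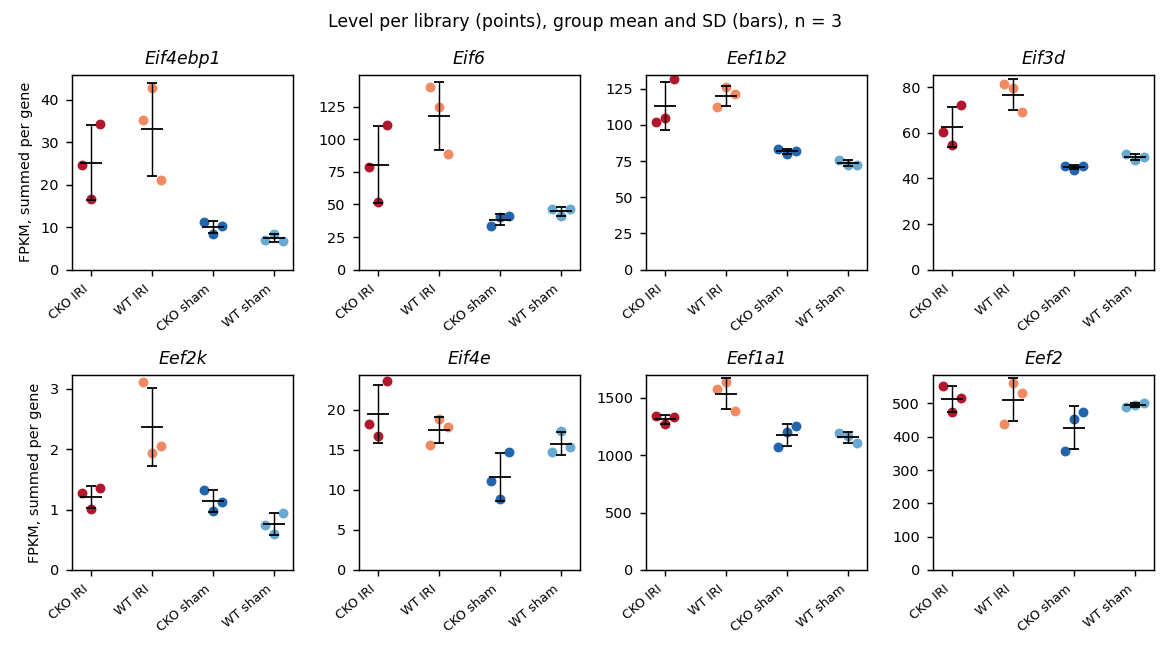
Points give summed FPKM per library and bars the group mean and SD (n = 3) for 8 factor genes, with groups from left to right CKO IRI, WT IRI, CKO sham and WT sham. Eif4ebp1, Eif6, Eef1b2 and Eif3d lie higher in every injured library than in every sham library of the same genotype, Eef2k is highest in WT IRI, and Eef2 overlaps between injured and sham libraries of WT and of CKO, while its CKO sham libraries lie below its WT sham libraries.

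Of the 5 tested genes grouped here by name as eEF1, 4 rose. The exception, Eef1e1, averaged 7.36 ± 0.7 FPKM in WT IRI and 5.74 ± 0.745 FPKM in WT sham and did not pass. Eef1a1 measured 1578, 1641 and 1381 FPKM in WT IRI and 1193, 1165 and 1103 FPKM in WT sham, without overlap (0.41, SE 0.12, limma adjusted p = 0.0196), but did not pass without WT IRI 24 (0.0555), WT sham 2 (0.0579) or WT sham 3 (0.0768). Trimmed-mean scaling (0.24, adjusted p = 0.1401) and a fit of only the WT groups (adjusted p = 0.0611) also lost its call. Eef1b2, the exchange factor that recharges eEF1A with GTP (chromosome 1, 63176825 to 63180486, plus strand), measured 112, 126 and 121 FPKM in WT IRI and 75.8, 72.5 and 72.4 FPKM in WT sham (0.70, SE 0.11, adjusted p = 0.00146). Eef1g, its structural partner, averaged 282 ± 59.5 FPKM in WT IRI and 159 ± 5.41 FPKM in WT sham (0.80). The calls of Eef1b2 and Eef1g were kept in every alternative. Eef1d, a further exchange subunit, measured 147, 107 and 49 FPKM in WT IRI and 49.4, 40.9 and 44.9 FPKM in WT sham (1.02, SE 0.33, adjusted p = 0.0338), so that WT IRI 49 lay within the sham range. That excess sat in the transcript Eef1d-201 of 824 bases, at 109.429, 81.972 and 10.527 FPKM in WT IRI and 31.727, 17.735 and 25.98 FPKM in WT sham. With length-weighted transcripts WT IRI 49 lay above the sham range, at 183, 135 and 97.1 in WT IRI and 68.9, 70.4 and 69.0 in WT sham (0.94, adjusted p = 0.00427), and with the highest transcript only the call was lost (0.435). The Eef1d call was also lost without WT IRI 13 (0.125), WT IRI 24 (0.0961) or any WT sham library (0.0643 to 0.0963).

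Of eEF2 and its kinase, the kinase rose. Eef2 measured 439, 562 and 532 FPKM in WT IRI and 489, 496 and 500 FPKM in WT sham, overlapping (0.04, SE 0.14, limma adjusted p = 0.849). Eef2k, the calcium-dependent kinase that inactivates eEF2 (chromosome 7, 120842831 to 120907450, plus strand), measured 3.11, 1.93 and 2.05 FPKM in WT IRI and 0.752, 0.589 and 0.943 FPKM in WT sham (0.92, SE 0.16, adjusted p = 0.00209). Injured libraries all lay more than 2-fold above the sham libraries at a low level, where the added 1 FPKM understates the fold. Part of this gap sat in the short transcript Eef2k-209 of 672 bases, at 1.874, 0.331 and 0.281 FPKM in WT IRI and listed at 0 in every sham library. With length-weighted transcripts Eef2k stood at 1.42, 1.64 and 1.80 in WT IRI and 0.752, 0.589 and 0.943 in WT sham, a change of 0.58 (adjusted p = 0.0187). With the highest transcript only the change was 0.52 and did not pass (adjusted p = 0.0564). Eif5a, the hypusine-bearing factor that helps ribosomes through slow peptide bonds, measured 347, 451 and 375 FPKM in WT IRI and 270, 245 and 262 FPKM in WT sham (0.59, SE 0.14, adjusted p = 0.0105). With the highest transcript only, Eif5a-209, the direction turned (-2.90, adjusted p = 0.1405). Its paralog Eif5a2 measured 1.05, 1.65 and 1.79 FPKM in WT IRI and 0.985, 1.10 and 1.11 FPKM in WT sham (0.27, adjusted p = 0.149). Among the 5 methyltransferases of elongation factors, Eef2kmt, which acts on eEF2, rose by 0.44, to 17.9 ± 0.727 FPKM in WT IRI against 12.9 ± 1.58 FPKM in WT sham, but not without WT sham 2 (0.0652).

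**Figure D4:**
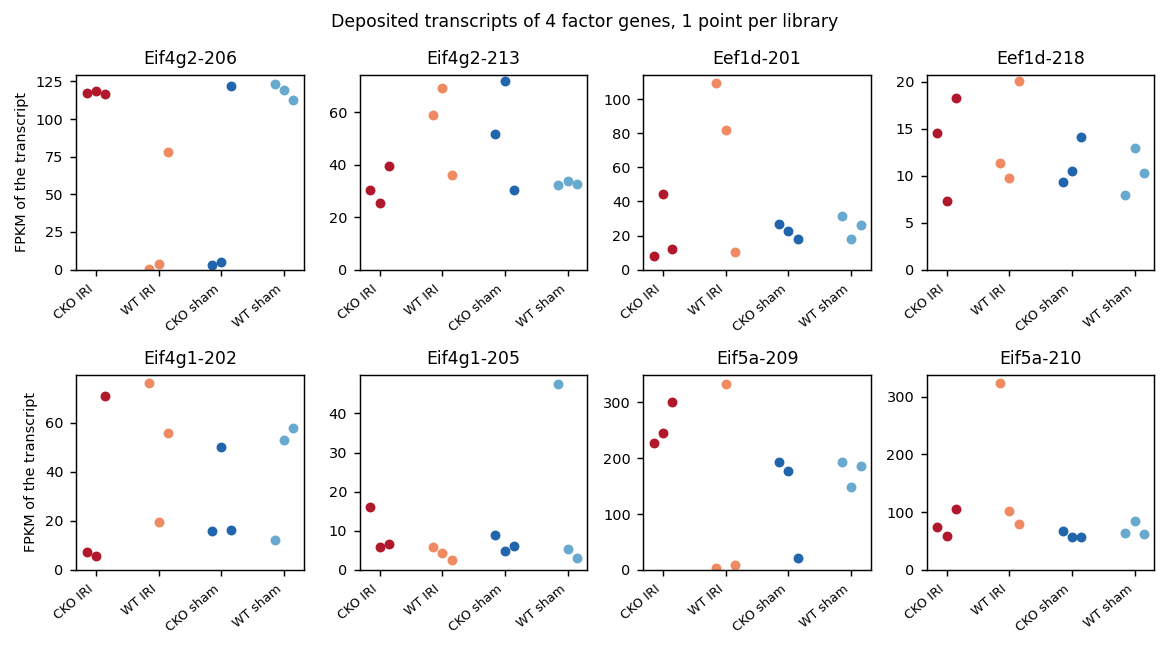
Points give the FPKM of single deposited transcripts of Eif4g2, Eef1d, Eif4g1 and Eif5a in each library, with groups from left to right CKO IRI, WT IRI, CKO sham and WT sham. Eif4g2-206 lies near 0 in WT IRI 13 and 24 and CKO sham 1 and 2 and above 75 FPKM in the other libraries, and Eif5a-209 lies near 0 in WT IRI 13 and 49.

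The same injury in the kidneys labelled CKO gave fewer calls. Of 65 genes, 5 rose (7.7%) and 0 fell at a limma adjusted p under 0.05, and over all tested genes 5.70% rose and 1.48% fell. At an unadjusted p under 0.05 the counts were 21 higher and 0 lower (16.4% and 7.62% of all genes), and array weights gave 19 and 1 calls (18.2% and 10.2% of all genes). The median log2 change was 0.25, against 0.08 over all genes, and 22 genes lay higher and 1 lower without overlap (21.4% and 10.1% of all genes). The 5 were Eif4ebp1, Eif6, Eef1b2, Eif4e and Eif3d, of which 4 had also risen in WT: 80.0% of the CKO calls and 14.8% of the WT calls. The comparisons share no libraries, but they share 1 estimate of the spread.

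Eif4ebp1 measured 24.6, 16.6 and 34.2 FPKM in CKO IRI 7, 15 and 29 and 11.2, 8.37 and 10.3 FPKM in CKO sham (1.21, SE 0.28, limma adjusted p = 0.0278). Eif6 measured 78.8, 51.9 and 111 FPKM in CKO IRI and 33.6, 40.3 and 41.1 FPKM in CKO sham (0.99, SE 0.25, adjusted p = 0.0371). In both genes CKO IRI 29 was highest and CKO IRI 15 lowest, the order of their injury markers, and no injured library overlapped with sham. Eef1b2 measured 102, 105 and 132 FPKM in CKO IRI and 83.4, 79.7 and 82.0 FPKM in CKO sham (0.45, SE 0.11, adjusted p = 0.0378). Eif3d measured 60.4, 54.8 and 72.4 FPKM in CKO IRI and 45.6, 43.8 and 45.6 FPKM in CKO sham (0.46, SE 0.12, adjusted p = 0.0434). Again CKO IRI 29 was highest, while CKO IRI 7 was lowest for Eef1b2 and CKO IRI 15 for Eif3d. Eif4e measured 18.2, 16.8 and 23.6 FPKM in CKO IRI and 11.2, 8.89 and 14.8 FPKM in CKO sham (0.72, SE 0.18, adjusted p = 0.0397). In CKO sham 1 its value lay mostly outside the transcript Eif4e-201 of 4991 bases, which held 0.315 FPKM there and 8.317 to 21.427 FPKM in the other libraries, while Eif4e-202 of 856 bases held 7.547 FPKM there and at most 0.071 FPKM elsewhere.

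None of these 5 calls was kept in every alternative, and a fit of only the CKO groups called 0 factor genes, with 15 at an unadjusted p under 0.05. That fit called 367 higher and 108 lower of all 11968 tested genes. The count of factor genes was 0 without CKO IRI 29, CKO sham 1 or CKO sham 2, 1 without CKO IRI 7 or any WT sham library, and 2 without CKO sham 3. Rises over all genes, 711 with every library, numbered 400, 493 and 341 without CKO IRI 29, CKO sham 1 or CKO sham 2. They numbered 340 without CKO IRI 7, 489 to 495 without a WT sham library and 331 without CKO sham 3. Adjusted p reached 0.1045 for Eif4ebp1, 0.115 for Eif6, 0.129 for Eef1b2, 0.1407 for Eif3d and 0.1982 for Eif4e.

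**Figure D5:**
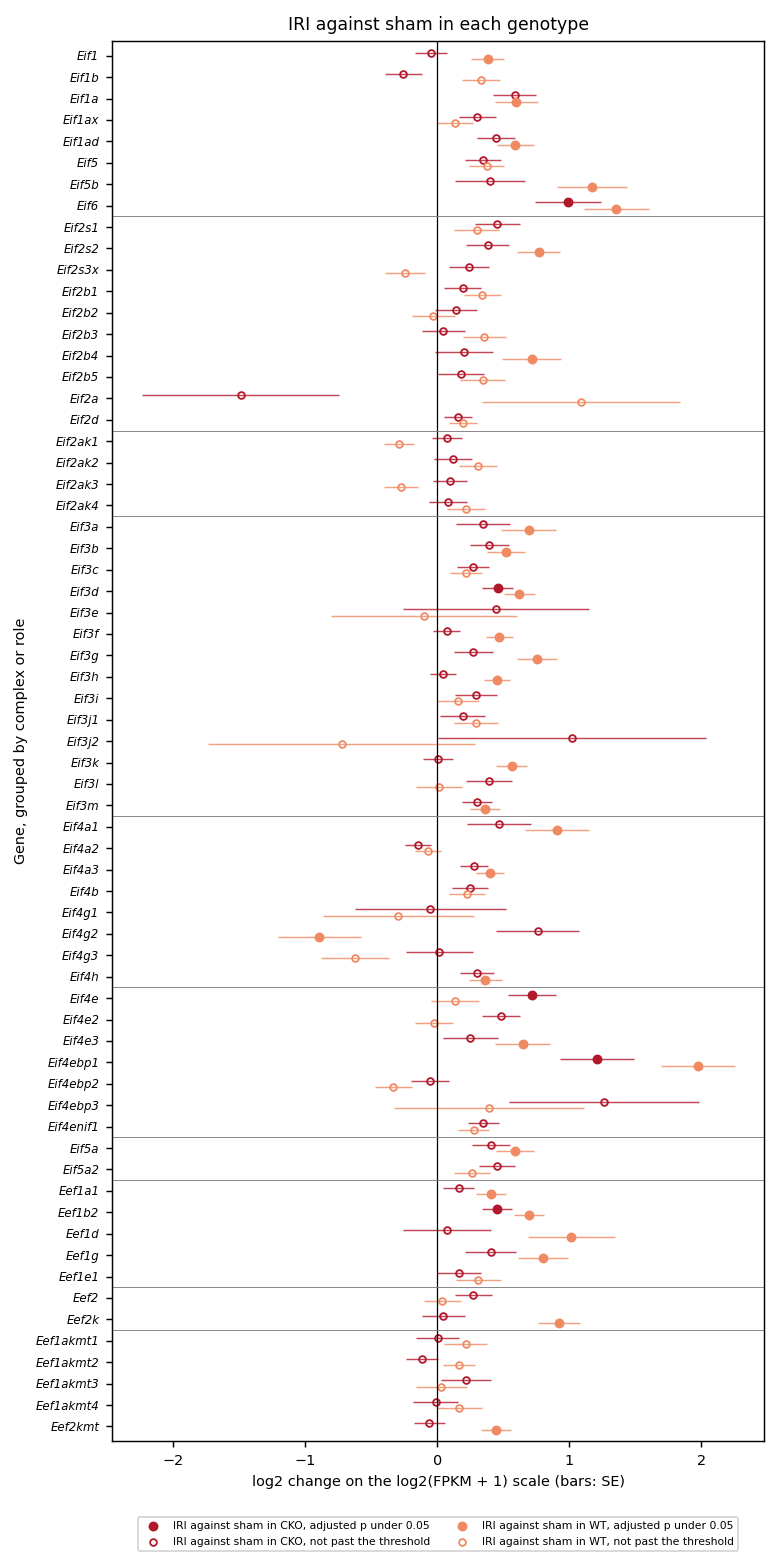
Points give the log2 change after injury on the log2(FPKM + 1) scale in CKO (dark) and WT (light) for the 65 tested factor genes, with bars for the SE and filled points for genes past the threshold. Filled light points number 28 and filled dark points 5, and Eif4ebp1 has the largest change past the threshold in both genotypes.

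Several members central to initiation and elongation did not pass in CKO kidneys. Eef1a1 measured 1341, 1270 and 1328 FPKM in CKO IRI and 1068, 1203 and 1256 FPKM in CKO sham (0.16, SE 0.12, limma adjusted p = 0.431). Eef2 measured 551, 473 and 517 FPKM in CKO IRI and 356, 452 and 475 FPKM in CKO sham (0.27, adjusted p = 0.266). Both genes had their lowest value in CKO sham 1. Eef2k, called in WT, measured 1.28, 1.01 and 1.35 FPKM in CKO IRI and 1.33, 0.977 and 1.13 FPKM in CKO sham (0.05, SE 0.16, adjusted p = 0.897). Eif4a1 measured 99.6, 63.4 and 115 FPKM in CKO IRI and 49.2, 82.9 and 65.9 FPKM in CKO sham (0.47, adjusted p = 0.268), and Eif4a2 59.7, 56.7 and 52.4 FPKM in CKO IRI and 65.0, 63.3 and 58.8 FPKM in CKO sham (-0.15, adjusted p = 0.389). The helicase groups overlapped. Eif5a measured 319, 315 and 433 FPKM in CKO IRI and 272, 258 and 264 FPKM in CKO sham (0.41, adjusted p = 0.114), and Eif5a2 1.97, 2.05 and 1.95 FPKM in CKO IRI and 1.11, 1.19 and 1.25 FPKM in CKO sham (0.45, SE 0.14, adjusted p = 0.0728), without overlap in either gene. Eif2s1 measured 20.1, 17.0 and 28.5 FPKM in CKO IRI and 15, 15.6 and 15.4 FPKM in CKO sham (0.45, adjusted p = 0.135).

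Of the kinases in CKO kidneys, Eif2ak1 measured 22.9, 22.0 and 23.9 FPKM in CKO IRI and 19.1, 23.9 and 22.6 FPKM in CKO sham, and Eif2ak3 11.2, 10.5 and 9.36 FPKM in CKO IRI and 8.94, 10.5 and 9.41 FPKM in CKO sham. Eif2ak2 held 3.62, 3.60 and 5.16 FPKM in CKO IRI and 3.52, 4.07 and 3.44 FPKM in CKO sham, and Eif2ak4 4.09, 4.75 and 3.75 FPKM in CKO IRI and 4.42, 4.07 and 3.31 FPKM in CKO sham. All 4 overlapped, with log2 changes between 0.07 and 0.12. Eif4ebp2 measured 39.6, 32.0 and 41.0 FPKM in CKO IRI and 32.0, 41.3 and 44.3 FPKM in CKO sham (-0.06). Eif4ebp3 measured 77.6, 80.9 and 11.0 FPKM in CKO IRI and 32.2, 14.1 and 10.1 FPKM in CKO sham, and Eif4g1 24.4, 15.8 and 80.4 FPKM in CKO IRI and 25.2, 57.5 and 24.3 FPKM in CKO sham. These last genes had single libraries several-fold away from the others of their group.

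Between genotypes in sham, limma called 0 factor genes in either direction, as it did over all genes (0.0% and 0.0%). At an unadjusted p under 0.05, 3 members were higher and 4 lower in CKO sham (3.51% and 3.03% of all genes). Array weights also called 0 members, and over all genes 56 higher and 68 lower. The smallest p belonged to Eif1b, a relative of the start-codon factor eIF1, at 45.7, 40.2 and 41.7 FPKM in CKO sham and 34.5, 31.6 and 28.5 FPKM in WT sham (0.42, SE 0.14, limma adjusted p = 0.748). Eif3h measured 142, 127 and 129 FPKM in CKO sham and 111, 108 and 111 FPKM in WT sham (0.26), and Eef1akmt2, a lysine methyltransferase of eEF1A, 12.9, 9.92 and 11.1 FPKM in CKO sham and 8.99, 9.23 and 8.24 FPKM in WT sham (0.32). In all 3 the groups did not overlap, which held for 11 members higher and 13 lower (15% and 13.4% of all genes). A lower summed Eif4g2 in CKO sham, at 57.0, 80.0 and 156 FPKM, against 158, 155 and 148 FPKM in WT sham (-0.78, adjusted p = 0.748), again followed the transcript Eif4g2-206, at 2.861, 5.323 and 121.859 FPKM in CKO sham.

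After injury, limma called 0 factor genes between the genotypes, against 0.0241% higher and 0.0160% lower over all genes. At an unadjusted p under 0.05, 1 was higher and 9 lower in CKO IRI (7.72% and 13.2% of all genes). Without overlap, 4 lay higher and 5 lower in CKO IRI (7.11% and 11.5% of all genes). Eef2k measured 1.28, 1.01 and 1.35 FPKM in CKO IRI and 3.11, 1.93 and 2.05 FPKM in WT IRI, all CKO libraries lying lower (-0.59, SE 0.16, limma adjusted p = 0.126). Eef2kmt measured 11.9, 13.1 and 14.3 FPKM in CKO IRI and 17.6, 18.7 and 17.3 FPKM in WT IRI, also without overlap (-0.42, SE 0.12, adjusted p = 0.126). Eef1d measured 36.1, 63.0 and 46.2 FPKM in CKO IRI and 147, 107 and 49 FPKM in WT IRI, with WT IRI 49 inside the CKO range (-0.95, SE 0.33, adjusted p = 0.162). With length-weighted transcripts the groups did not overlap, at 71.1, 83.7 and 90.7 in CKO IRI and 183, 135 and 97.1 in WT IRI (-0.71, adjusted p = 0.129). Without WT IRI 49, the library with the least Gpx3, limma called 5 members lower in CKO IRI: Eef1d (adjusted p = 0.00982), Eef2k (0.0459), Eif3f, Eif3g and Eif5b, while 6.01% of all genes were lower there. Array weights called Eef1d, Eif3f and Eif3g lower (3.22% of all genes). The summed proliferation markers also lay lower, at 72.8 to 120.9 FPKM in CKO IRI and 144.33 to 189.71 FPKM in WT IRI. Singly, Birc5 (-1.02, limma adjusted p = 0.1255) and Ccnb2 (-0.58, 0.2421, with overlap) did not pass. The part of these markers was not tested.

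The difference between the injury responses of the genotypes was tested directly as an interaction. limma called 0 members, against 0.00802% of all genes in each direction, while 5 were positive and 9 negative at an unadjusted p under 0.05 (7.26% and 10.7% of all genes). Smallest p-values belonged to Eef2k (-0.88, SE 0.23), Eif4g2 (1.65, SE 0.44), Eif3k (-0.56, SE 0.16) and Eef2kmt (-0.51, SE 0.17), with adjusted p of 0.188, 0.188, 0.188 and 0.198. The interaction of Eif4g2 was 0.62 with length-weighted transcripts (adjusted p = 0.224) and 6.90 with the highest transcript only (0.253). Eif3k measured 154, 182 and 172 FPKM in CKO IRI and 186, 162 and 159 FPKM in CKO sham, but 231, 208 and 197 FPKM in WT IRI and 151, 135 and 143 FPKM in WT sham. For Eif4g2 the values were 151, 146 and 159 FPKM in CKO IRI and 63.1, 76.3 and 116 FPKM in WT IRI. Array weights called 5 negative interactions, in Eef1d, Eif1b, Eif3f, Eif3h and Eif3k (3.96% of all genes). Without WT IRI 49 limma called Eif4g2 (adjusted p = 0.0455) as positive and Eef1d as negative (2.5% and 2.17% of all genes). A larger number of calls in WT than in CKO is therefore not shown by the 4-group fit to be a genotype difference in any single factor gene.

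Around the factors, 61 of 62 listed genes of translation and its control were measured. In WT 16 rose (26.2%) and 3 fell (4.92%), against 25.1% and 11.9% of all genes, and their median log2 change was 0.12, against 0.12 over all genes. In CKO 2 rose (3.28%) and 1 fell (1.64%), against 5.70% and 1.48% of all genes, with a median of 0.14 and 0.08 over all genes. limma called 0 between genotypes or as interactions, with 4 at an unadjusted p under 0.05 in sham, 14 after injury and 11 as interactions. Over all 12469 genes 816, 2609 and 2233 had such a p. Array weights called 1, 2 and 4 genes of the list. Over all genes they called 56 higher and 68 lower in sham, 321 and 402 after injury and 347 and 494 as interactions. Pabpc1, the poly(A)-binding protein that contacts eIF4G, measured 353, 366 and 256 FPKM in WT IRI and 157, 155 and 153 FPKM in WT sham (1.05, SE 0.16, limma adjusted p = 0.00113). Rps6, the ribosomal protein phosphorylated by S6 kinase, averaged 616 ± 55.3 FPKM in WT IRI and 363 ± 26.4 FPKM in WT sham (0.76), and Pelo, which rescues stalled ribosomes, 29.3 ± 10.3 and 14.5 ± 1.04 FPKM (0.92). The calls of these 3 genes were kept in every alternative. Without WT IRI 13, WT sham 1 or WT sham 3, however, rises in the list numbered 10, 9 and 9, and without WT sham 2 or WT sham 3 falls numbered 1. Over all genes the rises in those fits numbered 2366, 2257 and 2176 and the falls 905 and 914.

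By branch, 4 of 10 tested genes of the integrated stress response, the program that follows phosphorylation of eIF2 alpha, rose in WT and none fell. Over all genes 25.1% rose and 11.9% fell. The 4 genes were Asns, Atf4, Atf5 and Trib3. Asns, the asparagine synthetase induced by ATF4, measured 18.0, 15.5 and 7.72 FPKM in WT IRI and 3.56, 4.86 and 3.47 FPKM in WT sham (1.5, SE 0.30, limma adjusted p = 0.0039). In CKO the same branch had 0 rises and 1 fall (5.7% and 1.48% of all genes), and 0 of its genes were called as an interaction. That fall was in Ddit3, the stress factor CHOP, at 14.6, 19.6 and 20.5 FPKM in CKO IRI and 32.9, 28.4 and 31.1 FPKM in CKO sham (-0.74, SE 0.17, adjusted p = 0.0278). It did not pass without CKO IRI 7 (0.0991), CKO sham 1 (0.0771), CKO sham 2 (0.0656) or CKO sham 3 (0.0925). In WT, Ddit3 measured 32.6, 22.1 and 23.9 FPKM after IRI and 23.0, 18.9 and 19.4 FPKM in sham, and was not called. Every CKO sham library thus lay above every WT sham library. Of the mTORC1 branch 4 of 14 rose in WT (Mlst8, Rheb, Rps6 and Rps6ka1), a share near the 25.1% of all genes, and 1 fell. The gene that fell was the mTOR inhibitor Deptor, at 9.92, 11.4 and 11.3 FPKM in WT IRI and 13.7, 15 and 14.5 FPKM in WT sham (-0.38, adjusted p = 0.0157), though not without WT sham 2 (0.0645) or WT sham 3 (0.0549).

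Of the mitochondrial translation factors, 0 of 9 rose and 1 fell in WT (25.1% and 11.9% of all genes). The lower gene was Gfm1, the mitochondrial elongation factor G1, at 16.7, 15.3 and 19.5 FPKM in WT IRI and 32.4, 30.6 and 31.6 FPKM in WT sham (-0.85, SE 0.17, limma adjusted p = 0.00382), a call kept in every alternative. Etf1, the release factor eRF1, rose in CKO, at 39.1, 37.3 and 49.7 FPKM in CKO IRI and 24.1, 29 and 27.4 FPKM in CKO sham (0.62, SE 0.13, adjusted p = 0.0197), though not without CKO IRI 29 (0.0566), CKO sham 1 (0.0632) or CKO sham 3 (0.0653). Ddx3x, a helicase that helps scanning through structured leaders, was called in opposite directions. It measured 57.6, 59.4 and 74.2 FPKM in CKO IRI and 39.8, 49.7 and 44.7 FPKM in CKO sham (0.50, adjusted p = 0.0358), but 42.2, 46.1 and 44.1 FPKM in WT IRI and 57.3, 56.3 and 57.2 FPKM in WT sham (-0.36, adjusted p = 0.0408). Its interaction of 0.86 did not pass (adjusted p = 0.176), and the 2 calls were lost in 11 and 8 of 24 alternatives, with adjusted p up to 0.1243 in CKO and 0.1034 in WT.

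Some members could not be read at this precision. In 7 of the 66 genes the libraries of at least 1 group differed by 3-fold or more or included a value listed at 0, namely Eef1a2, Eef1d, Eif2a, Eif3e, Eif3j2, Eif4ebp3 and Eif4g1. Eif3e, a subunit of eIF3 with 1 measured transcript, measured 79.0, 29.4 and 30.9 FPKM in CKO IRI, 19.0, 90.4 and 32.7 in WT IRI, 14.6, 67.6 and 27.9 in CKO sham and 63.3, 18.4 and 59.6 FPKM in WT sham. Eif3j2, a near copy of Eif3j1, was listed at 0 in 1 CKO IRI, 2 WT IRI, 2 CKO sham and 1 WT sham library and held 3.63 to 5.80 FPKM in the others, and fragments may have been split between the copies. Eif2a measured 5.27, 3.55 and 5.49 FPKM in CKO IRI, 23.4, 3.23 and 30.0 in WT IRI, 24.6, 5.16 and 25.0 in CKO sham and 4.91, 11.1 and 3.69 FPKM in WT sham. Eif3e and Eif3j2 held, in every group, values at least 2.69-fold apart or a value listed at 0 beside a higher one. Eif2a held values above 20 FPKM in WT IRI and CKO sham, whereas its highest value was 5.49 FPKM in CKO IRI and 11.1 FPKM in WT sham. Eef1a2 held 0.372, 0.246 and 0.809 FPKM in CKO IRI, 0.124, 0.526 and 0.331 in WT IRI, 0, 0.574 and 0.137 in CKO sham and 0.438, 0.451 and 0.886 FPKM in WT sham. The source of this spread was not tested.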

How the data were processed

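RNA of 12 renal cortex libraries was analysed, 3 in each group, from stranded dUTP libraries of total RNA per the labels' protocols. The authors deposited 1 table of 25790 mouse transcripts, read here as FPKM. Its header names no unit, and StringTie can also write TPM. The submitters' processing notes name StringTie, HISAT2 2.1.0 and cutadapt. They also list GRCh38, a human build, although every identifier is of a mouse transcript. Strand setting and read depth are not given in the sources used here, so no counting interval is given and depth limits precision to an unknown degree.

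Every transcript had a mean of at least 0.5 in at least 1 group. Transcripts were matched to GENCODE M21 (GRCm38), which placed 25740 (the other 50, at most 0.103% of a library, were dropped). FPKM were added up into 13465 genes, and coordinates are from that annotation. Near-identical copies may share fragments.

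The filter kept 12469 genes that reached 1 FPKM in 3 or more libraries. On log2(FPKM + 1), limma 3.58.1 (R 4.3.3) estimated a mean for each group, a shared spread and a mean-variance trend. Fold changes are differences on this scale, and for low genes the added 1 makes them too small. Genes were called at a two-sided Benjamini-Hochberg adjusted p under 0.05 over all tested genes, in 5 contrasts. Background percents are shares of all tested genes with the same call. Alternatives changed the pseudocount, filter, scaling (quantiles, or trimmed means of log ratios), weights, groups fitted, summing of transcripts and each library left out. The members, the 62 other translation genes and the markers were chosen with earlier results of these data known. Values per library are given for the 6 smallest p in each direction among called members (3 of smallest p where fewer were called), the 4 smallest interaction p, up to 4 in each direction from the other list, and a set of central factors. Other members are given where a role needed an example.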

Additional observations from a re-analysis of the deposited data

How the results depend on the processing

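The factor genes that rose in WT numbered 27 and became 16 with trimmed-mean scaling. They ranged over 16 to 29 when single libraries were left out. Over all tested genes the rises numbered 3125, 2242 with trimmed-mean scaling and 2176 to 3307 with single libraries left out. The 1 fall in WT became 3 with array weights, 5 with quantile normalization or trimmed-mean scaling, 0 with the highest transcript only, 0 with the length-weighted sum and 4 with CKO sham 1 and WT IRI 49 both left out, and ranged over 0 to 4 with single libraries left out. The length-weighted sum and the setting with 2 libraries left out were chosen after seeing the data. Over all tested genes the falls in WT numbered 1483 and ranged over 905 to 1920 with single libraries left out. The 5 rises in CKO became 19 with array weights, 3 with quantile normalization, 2 with trimmed-mean scaling, 1 with the highest transcript only, 0 with only the groups compared and 2 without CKO sham 1 and WT IRI 49, and ranged over 0 to 7 with single libraries left out. Array weights also gave 1 fall there. Over all tested genes the rises in CKO numbered 711, 2275 with array weights and 518 with quantile normalization. They numbered 581 with trimmed-mean scaling, 438 with the highest transcript only and 367 with only the groups compared. Without CKO sham 1 and WT IRI 49 they numbered 745, and with single libraries left out 331 to 1080. Between genotypes after IRI, array weights gave 3 lower, and leaving out CKO sham 1 and WT IRI 49 gave 1 higher and 5 lower. Lower counts ranged over 0 to 5 with single libraries left out. For the interaction, array weights gave 5 negative calls, and single libraries left out gave 0 to 1 in each direction. Of 24 alternatives, Eif5a reversed in WT only with the highest transcript, at -2.90 (adjusted p = 0.1405).

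Of the other translation genes, rises in WT numbered 16, and 10 with the highest transcript, 9 with quantile normalization and 9 to 18 with single libraries left out. Over all genes the same settings gave 3125, 2445, 2225 and 2176 to 3307. Falls numbered 3, and 8 with quantile normalization, 9 with trimmed-mean scaling, 5 with the length-weighted sum, 6 without CKO sham 1 and WT IRI 49 and 1 to 4 with single libraries left out. In CKO the 2 rises became 9 with array weights, 1 with trimmed-mean scaling, 0 with only the groups compared and 0 to 8 with single libraries left out. The 1 fall became 2 with array weights or quantile normalization, 0 with only the groups compared, 0 without CKO sham 1 and WT IRI 49 and 0 to 2 with single libraries left out. Array weights gave 1 higher in sham, 1 higher and 1 lower after IRI and 2 interactions in each direction. Leaving out CKO sham 1 and WT IRI 49 gave 3 higher and 3 lower after IRI (767 and 825 over all genes). Single libraries left out gave 0 to 2 higher, 0 to 3 lower and 0 to 1 interactions in each direction. The cause of these changes was not tested.

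The Gpx3 difference after IRI, 0.52, ranged over -0.0012 to 0.864 with single libraries left out. It reversed to -0.0012 without WT IRI 49, alone or together with CKO sham 1. Sham libraries of the 2 genotypes share the numbers 1 to 3, and nothing states that the numbers pair them. Deviations of equal numbers did not correlate (0.004, -0.031 and -0.002), but with 3 libraries a group this cannot exclude pairing. A replicate block gave 0 calls in each direction in sham, with 11 at an unadjusted p under 0.05. With 3 libraries a group and unknown depth, the counts are less certain than the per-library values.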
